A study of Arabidopsis thaliana with 24 samples.

Results

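The transcripts described here come from the 2 genomes that a plant cell keeps outside its nucleus. Members were all rows of the count table whose locus code begins with ATCG, for the chloroplast genome, or ATMG, for the mitochondrial genome. They numbered 279 of 33602 loci, with 133 chloroplast and 146 mitochondrial codes, and were taken by code alone.

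Chloroplasts descend from photosynthetic bacteria and keep genes for parts of the photosystems, the ATP synthase, the NDH complex, the large Rubisco subunit and their own ribosomes and RNA polymerase. Mitochondria keep genes for parts of the respiratory chain, their ATP synthase, cytochrome c maturation and ribosomes. In both organelles neighbouring genes are often transcribed together, nucleus-encoded phage-type polymerases transcribe part or all of the genome, and poly(A) tails mark RNA for decay rather than stabilise it. Chloroplasts also have a polymerase of their own, which nucleus-encoded sigma factors direct.

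Seedlings of Arabidopsis thaliana aged 7 days were divided into root and shoot, and RNA of either organ was counted. WT is the Col-0 wild type. The pxy group carries the pxy-5 allele, PXY being a receptor kinase of the vascular cambium. The 41-OX group has constitutive CLE41, the gene of a peptide that PXY binds. The promoter behind CLE41, the number of transgenic lines and the number of plants per library are not given in the sources used here. Each of the 6 groups held 4 libraries labelled as biological replicates, and the series is titled after regulators of vascular proliferation. The labels call the molecule total RNA and cite a library protocol without saying whether poly(A) RNA was selected.

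Of the 24 libraries, 22 were used for every result unless stated, 11 from roots and 11 from shoots. The library labelled pxy root replicate 2 had 22807 CPM (a count scaled to the same library total) over 16 photosynthesis genes that mark shoots, against 229 to 376 CPM in the other pxy roots. WT shoot replicate 2 held 167131 counts, against 7033091 to 12226066 in the libraries used. Among the libraries used, 41-OX root replicate 4 also carried more of the shoot markers, at 4325 CPM against 356 to 967 CPM in the other 41-OX roots. Root markers, 10 genes in all, stood at 135 to 189 CPM in 41-OX shoots and 26.2 to 45.8 CPM in WT and pxy shoots.

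All 133 chloroplast codes had at least 1 count in the libraries used, and 122 of them had 100 or more. Of the mitochondrial codes, 6 had no count at all, 45 had 100 or more, and the median code had 19 counts over 22 libraries. The filter on low counts kept 123 chloroplast and 15 mitochondrial codes in shoots, and 85 and 44 in roots. In shoots 116 chloroplast codes reached the filter's minimum in WT libraries, 109 in pxy and 107 in 41-OX, each group counted whether or not the others reached it. Codes kept only through the group in which they were high cannot be read without bias, so the counts of calls without any filter are given as well.

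Chloroplast transcripts made up less than 1% of the counts in every library used, and shoots carried more of them than roots in all 3 genotypes. In WT shoots the chloroplast share was 0.911%, 0.819% and 0.958% of counts. The 4 pxy shoots had 0.780%, 0.796%, 0.707% and 0.585%, and the 4 41-OX shoots had 0.628%, 0.557%, 0.664% and 0.557%. All pxy and 41-OX shoots lay below the lowest WT shoot, while pxy and 41-OX shoots overlapped. The exact binomial 95% interval of WT shoot replicate 1 was 0.905% to 0.917%, and such intervals cover counting error only.

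The WT shoot mean of 0.896% ± 0.0709 (SD, n = 3) compared with 0.717% ± 0.0963 (SD, n = 4) in pxy and 0.601% ± 0.0533 (SD, n = 4) in 41-OX, ratios of 0.800 and 0.671. The exact permutation test, two-sided, gave p = 0.0571 for pxy and for 41-OX against WT, the smallest value that 3 against 4 libraries allow. Adjusted by Benjamini-Hochberg over 18 share tests it was 0.129, so neither difference passed 0.05. The left-out WT shoot replicate 2 had 1.28%, above all other shoots.

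In roots the chloroplast share was 0.175% to 0.204% in WT, 0.128% to 0.200% in pxy and 0.132% to 0.262% in 41-OX, with overlap between all genotypes. The 41-OX root at 0.262% was replicate 4, the one with more shoot markers, and the other 3 stood at 0.132%, 0.138% and 0.174%. The library labelled pxy root replicate 2 had 0.806%, within the range of shoots. The 3 pxy roots used had the fewest shoot markers of any genotype's roots on average (286 CPM ± 78.4, SD, n = 3), and had chloroplast shares of 0.169%, 0.200% and 0.128%. Whole organs were sampled, so fewer cells of a type and less RNA per cell cannot be told apart, here or below.

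The mitochondrial share ran the other way, higher in roots than in shoots. WT roots held 0.143% ± 0.0154 (SD, n = 4) and WT shoots 0.0356% ± 0.00355 (SD, n = 3), a ratio of 4.02. The ratios were 4.31 in pxy and 3.21 in 41-OX, and no root overlapped a shoot of its genotype in either share. The chloroplast share stood at ratios of 0.210, 0.231 and 0.294 of root over shoot in WT, pxy and 41-OX. Exact permutation p-values of these organ differences were 0.0571 in WT and pxy and 0.0286 in 41-OX, all at the smallest value possible, and 0.129 after adjustment.

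**Figure D1:**
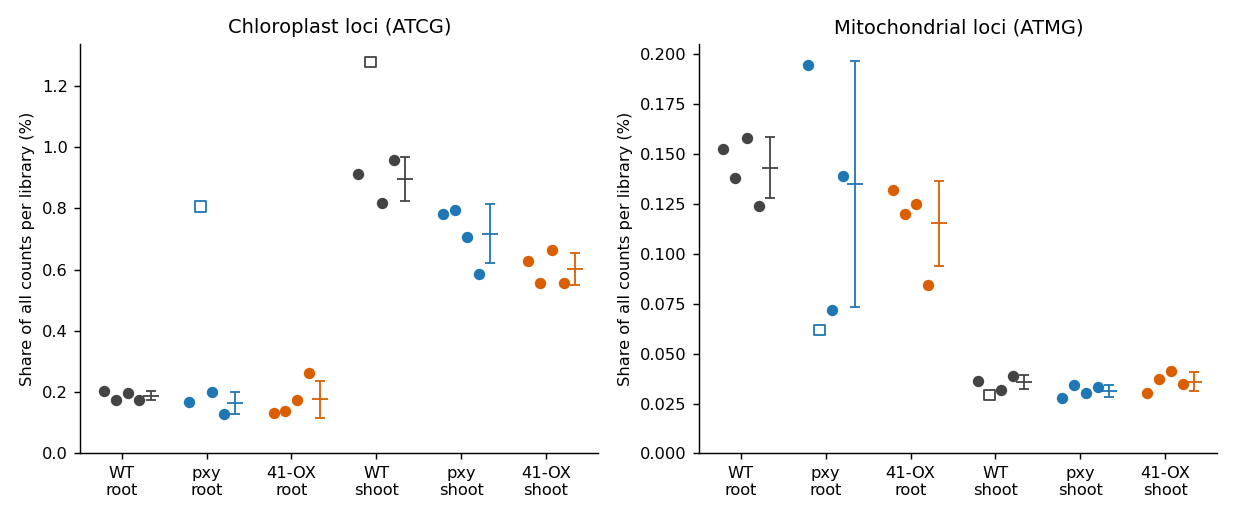
Share of all counts (%) at chloroplast loci (left) and mitochondrial loci (right) in each library, by genotype and organ. Filled points are libraries used, open squares the 2 left-out libraries, and the bars to the right of the points show mean and SD of the libraries used. WT shoots lie at 0.819% to 0.958% chloroplast counts, above all pxy and 41-OX shoots used, and root shares lie at 0.128% to 0.262%, while mitochondrial shares are higher in roots.

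Mitochondrial shares of the 3 genotypes overlapped in both organs. In pxy roots they spread from 0.0717% in replicate 3 to 0.195% in replicate 1, a wider range than the 0.124% to 0.158% of WT roots. The 41-OX roots had 0.132%, 0.120%, 0.125% and 0.0844%, the lowest again in replicate 4. Against WT roots the exact permutation p was 0.0857 (adjusted 0.171).

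A few codes held most of the organelle counts. ATMG00020 and ATMG01390 together took 88.3% of all mitochondrial counts, and neither code is paired with a gene name in the reference used here. ATMG00020 took 63.4% of mitochondrial counts in roots and 61.1% in shoots, and ATMG01390 took 26.1% and 22.5%. The organ ratios of the mitochondrial share given above therefore rest mostly on ATMG00020 and ATMG01390. The remaining mitochondrial codes shared 0.00831% to 0.0267% of root counts and 0.00449% to 0.00708% of shoot counts. This remainder averaged 0.0160% in WT roots and 0.00694% in WT shoots, 0.0151% and 0.00490% in pxy, and 0.0104% and 0.00531% in 41-OX. In shoots this remainder was 0.00673% to 0.00708% in WT, above 0.00449% to 0.00529% in pxy and 0.00469% to 0.00572% in 41-OX. It does not include these top codes, whose own levels overlapped between genotypes in shoots.

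Among chloroplast codes ATCG01130 had the most counts in both organs, yet a different weight in each. It took 31.0% of chloroplast counts in roots and 12.1% in shoots. In shoots it was followed closely by ATCG01020 with 11.9%, which took 2.19% in roots. These are shares of counts, which rise with the length of a locus, and lengths of these codes were not used here.

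ATCG01130 stood at 577, 620, 667 and 593 CPM in WT roots and at 1186, 975 and 1096 CPM in WT shoots. No root reached the shoots, and the difference between organs was small beside that of other chloroplast codes. edgeR's quasi-likelihood test gave a log2 fold change of root over shoot of -1.17 ± 0.17 (SE; adjusted p = 1.5e-06). ATCG01020, in contrast, had 34.8, 24.6, 28.4 and 31.4 CPM in WT roots and 905, 918 and 1152 CPM in WT shoots. Its log2 fold change was -5.41 ± 0.59 (SE, edgeR adjusted p = 2.1e-07).

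Every chloroplast code tested fell in WT roots relative to WT shoots, by amounts that differed widely between codes. The edgeR test called 124 of 124 tested in WT, 119 in pxy and 119 in 41-OX lower in roots, and none higher. Of all loci tested, 40.7%, 40.2% and 39.6% were called lower in roots in the same comparisons. Without a filter on low counts the numbers were 132, 124 and 123 chloroplast codes. The median log2 fold changes were -3.36, -2.35 and -2.53, where the median over all loci tested was -0.01, 0.00 and 0.01.

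The deepest fall in WT was at ATCG00420, with a log2 fold change of -6.23 ± 0.68 (SE, edgeR adjusted p = 1.9e-07). The reference lists a chromosome 4 pseudogene, AT4G13285, as derived from ATCG00420. Over 169 aligned bases that pseudogene was 88.2% identical to the chloroplast gene ndhJ, which encodes a subunit of the NDH complex of cyclic electron flow. ATCG00430, annotated as photosystem II reaction center protein G, stood at 173, 150 and 182 CPM in WT shoots and 3.69 to 6.83 CPM in WT roots, a log2 fold change of -5.38 ± 0.53 (SE, edgeR adjusted p = 5.6e-08). That name came through nuclear AT5G11770, which gave no alignment to the chloroplast genome, so it was not checked by sequence. ATCG00670, annotated as the plastid-encoded subunit of the Clp protease, fell by 4.34 on the log2 scale. ATCG00530, annotated as a CemA-like envelope protein, fell by 4.75. Their names, and those of the ribosomal protein codes below, came through nuclear loci in the same way and were not checked either.

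The 3 codes described as ribosomal proteins of the chloroplast had smaller falls than these 4 codes. ATCG00750, for ribosomal protein S11, fell by 1.13 ± 0.14 (SE, edgeR adjusted p = 5.5e-08), ATCG01310, for L2, by 2.11 and ATCG00660, for L20, by 2.34 on the log2 scale. ATCG00750 lay in a run of neighbouring codes with small changes, ATCG00740 to ATCG00810, a range chosen after the values were seen. The 8 codes of this run had log2 fold changes of -2.0 to -0.88, and the 5 codes of a second run, ATCG01090 to ATCG01130, had -2.35 to -0.92. The other 111 chloroplast codes had a median of -3.44.

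The same runs stood out in pxy and 41-OX. Their medians were -1.50 and -0.91 in pxy, beside -2.55 over the other codes, and -1.08 and -0.42 in 41-OX, beside -2.62. Across 123 pairs of neighbouring codes, the log2 fold changes of neighbours correlated at r = 0.50 in WT, 0.30 in pxy and 0.59 in 41-OX. This is a description across codes that share libraries, and reads of neighbours that overlap or are transcribed together are not separate measurements.

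**Figure D2:**
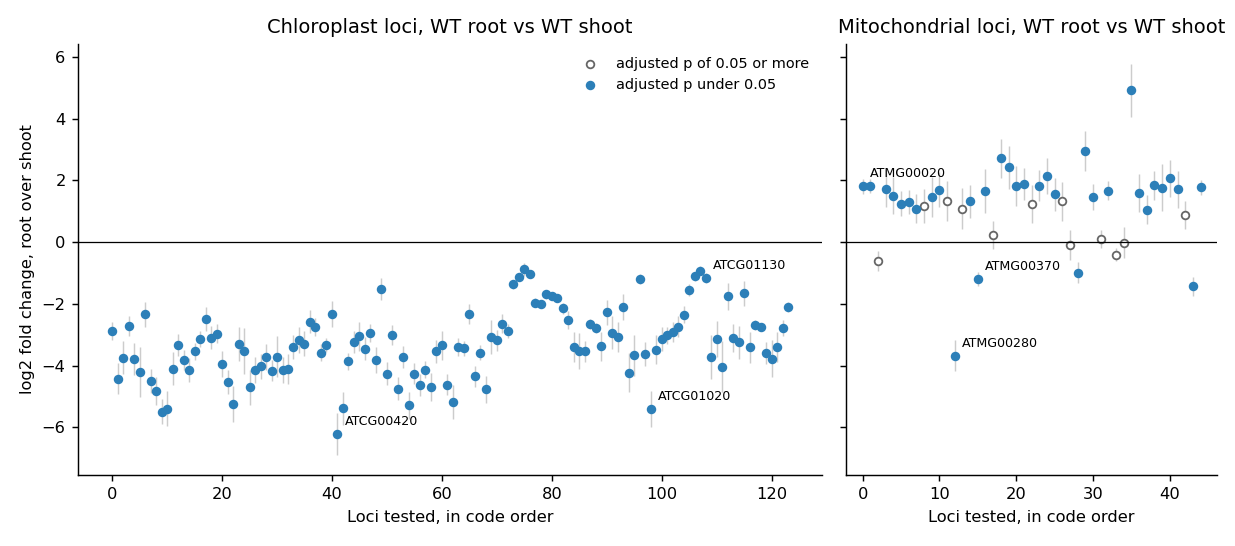
log2 fold change of WT roots over WT shoots for each chloroplast (left) and mitochondrial (right) locus tested, in code order, with SE bars. Filled points had an edgeR adjusted p under 0.05. All 124 chloroplast loci lie below 0, with a run of small changes at ATCG00740 to ATCG00810, and most mitochondrial loci lie above 0, with ATMG00280 at -3.68 and ATMG00370 at -1.19.

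With both left-out libraries included, 81 chloroplast codes were called lower in pxy roots, against 119 without them. ATCG01020 stood at 159 CPM in 41-OX root replicate 4 and at 20.04, 22.1 and 35.2 CPM in the other 41-OX roots. The latter overlapped the WT roots. The part of the higher shoot markers of this library in its chloroplast values was not tested.

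Among mitochondrial codes more rose than fell in roots, and in 41-OX most did not pass the test. Of 45 tested, 29 rose and 4 fell in WT, 33 rose and 3 fell in pxy, and 12 rose and 4 fell in 41-OX, where 39.5%, 39.6% and 39.1% of all loci tested rose. Their median log2 fold changes were 1.46, 1.68 and 0.73, and without a filter on low counts 0.31, 1.17 and 0.38. In this fit 32 mitochondrial codes reached the filter's minimum in WT roots and 13 in WT shoots, which favours codes high in roots. With no filter the numbers that rose were 30, 37 and 13, and 11, 4 and 7 fell. Single libraries carried part of these counts. Without pxy root replicate 1, 13 codes rose and 6 fell in pxy, with a median of 0.87. In WT 19 rose without root replicate 1 and 18 without root replicate 3.

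ATMG00020 stood at 915, 900, 982 and 823 CPM in WT roots and at 213, 172 and 225 CPM in WT shoots, with no overlap. Its log2 fold change was 1.81 ± 0.25 (SE, edgeR adjusted p = 1.7e-06), and ATMG01390 gave 1.79 ± 0.25. ATMG01190, annotated as subunit 1 of the mitochondrial ATP synthase, rose by 1.85 ± 0.46 (SE, edgeR adjusted p = 0.0011). ATMG00730, for subunit 3 of cytochrome c oxidase, the terminal complex of the respiratory chain, rose by 2.94 ± 0.65. ATMG01080, for subunit 9 of the ATP synthase, had 5.84 to 7.82 CPM in WT roots and 5.83, 9.41 and 6.74 CPM in WT shoots, so the organs overlapped (edgeR adjusted p = 0.082).

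The mitochondrial codes that went against the others were ATMG00280, ATMG00370, ATMG00690 and ATMG01370. ATMG00280 is annotated with the catalytic domain of the Rubisco large chain and ATMG00370 as a Ycf1 protein, both names of chloroplast genes, a feature noticed after their values were seen. ATMG00280 had 2, 3, 2 and 2 counts in the 4 WT roots and 22, 19 and 22 counts in the 3 WT shoots used. No root overlapped a shoot, and its log2 fold change was -3.68 ± 0.50 (SE, edgeR adjusted p = 3.9e-07). It fell in pxy and 41-OX roots as well, by 2.32 and 3.04.

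The sequences of the nuclear copies of these codes show the likeness. AT2G07732 on chromosome 2, which the reference matches to ATMG00280, aligned to the mitochondrial genome over 740 bases with 2 mismatches. It also aligned to the chloroplast gene rbcL over 573 bases at 96.9% identity. AT2G07739, matched to ATMG00370, aligned to the mitochondrial genome over 888 bases with 0 mismatches and to chloroplast ycf1 over 821 bases at 97.1% identity. A stretch of 120 bases of AT2G07732 is shown with its chloroplast counterpart, because it shows how few positions could tell their reads apart. It was taken as the first ungapped stretch of this length with the most differences. The whole alignment to rbcL had 13 mismatches and 5 gap bases. Capitals mark the 4 positions at which the stretches differ (RefSeq, TAIR10.1, chr2:3468578-3468697 on the minus strand and chloroplast positions 55539 to 55658 on the plus strand).
AT2G07732: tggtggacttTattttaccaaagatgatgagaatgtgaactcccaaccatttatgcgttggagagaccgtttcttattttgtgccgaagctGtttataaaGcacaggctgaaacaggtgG
chloroplast rbcL: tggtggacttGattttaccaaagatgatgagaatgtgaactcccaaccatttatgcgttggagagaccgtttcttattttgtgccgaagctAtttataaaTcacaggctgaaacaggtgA

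The nuclear copies showed the same direction between organs. AT2G07732 fell by 3.11 ± 0.49 (SE, edgeR adjusted p = 3.4e-06) and AT2G07739 by 0.78 ± 0.24 (SE, edgeR adjusted p = 0.0051) in WT roots relative to WT shoots. Whether reads of chloroplast transcripts were counted at these codes was not tested, since the counts hold no reads.

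Other mitochondrial codes have near-identical copies in a stretch of chromosome 2, so that their reads may not be told apart. The reference pairs 53 mitochondrial codes with 55 nuclear loci, 54 of which lie between positions 3239693 and 3503476 of chromosome 2 in TAIR10.1. Of the 55 pairs, 30 aligned to the mitochondrial genome without a mismatch and the most divergent had 4 mismatches. Over 22 libraries the mitochondrial codes of these pairs held 7579 counts and the nuclear loci 10574. In the 18 pairs with at least 200 counts, a median of 47.4% of the pair's counts stood at the mitochondrial code, and 12 pairs had 40% to 60%, with a full range of 7.69% to 69.5%.

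One pair is shown in sequence because its mitochondrial code is among the few called in roots. The 120 bases at the start of AT2G07687 (chr2:3312532-3312651, minus strand, RefSeq, TAIR10.1) and their match at mitochondrial positions 330654 to 330773 (minus strand), in the gene cox3, had 0 mismatches, so no letter is in capitals.
AT2G07687: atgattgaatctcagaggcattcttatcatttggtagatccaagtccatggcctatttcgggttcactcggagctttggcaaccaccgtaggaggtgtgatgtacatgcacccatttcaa
mitochondrial cox3: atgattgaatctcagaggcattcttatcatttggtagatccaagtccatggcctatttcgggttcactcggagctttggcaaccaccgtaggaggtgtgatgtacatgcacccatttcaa

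ATMG00730 held 529 counts and AT2G07687 held 502, so 51.3% stood at the mitochondrial code (exact binomial 95% interval 48.2% to 54.4%). ATMG00980, for a ribosomal protein of the S12 family, held 531 counts and its copy AT2G07675 held 570. Not all pairs were even. ATMG00560 held 165 counts beside 975 at AT2G07715, 14.5% of the pair, over an alignment with 4 mismatches. The mitochondrial sequence of TAIR10.1 may not be the one the authors aligned to.

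The chloroplast genome has a repeat of its own. Its inverted repeat spans 26264 bases in either copy, at positions 84171 to 110434 and 128215 to 154478 of the chloroplast sequence in TAIR10.1, with 0 mismatches, and 11 gene names occur in both copies. Of 10 pairs of chloroplast codes whose CPM differed by a root mean square of at most 0.25 on the log2 scale, 6 were numbered in opposite order as the repeat would give, such as ATCG00950 with 41736 and ATCG01180 with 42130 counts. In these 6 pairs the first code held 49.2% to 50.5% of the counts. The log2 CPM of the codes, with 1 added to each count, correlated at r = 0.991 to 0.999 over 22 libraries. Even splits and high correlations follow in part from the limit by which the pairs were taken. ATCG00780 and ATCG00800 met the same limit without that order, at 51.9% and r = 0.979. One of these codes, ATCG01310, is described as ribosomal protein L2, and rpl2 is among the names in both copies. The members of such pairs cannot be taken as separate measurements.

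**Figure D3:**
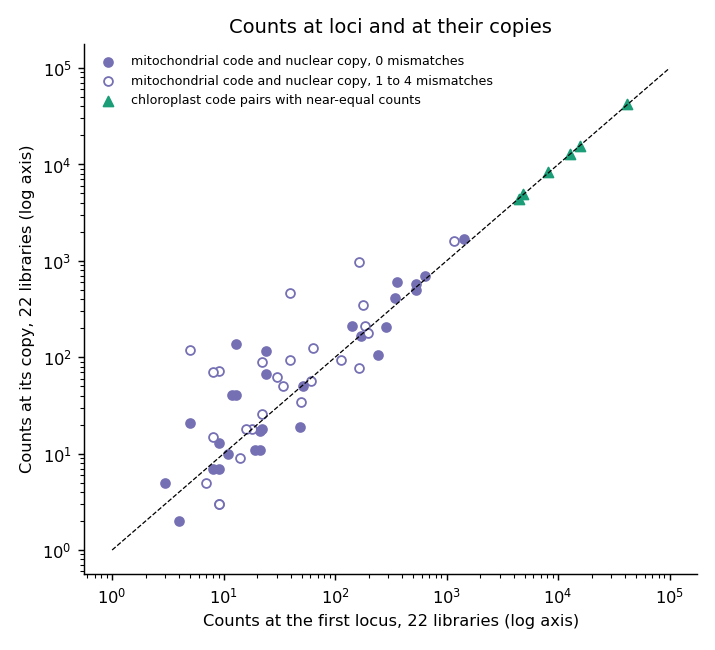
Counts summed over the 22 libraries used at a locus (horizontal) and at its copy (vertical), both on log axes, with a dashed line of equality. Circles are 54 pairs of a mitochondrial code and a nuclear locus (filled for 0 mismatches), and triangles are 6 pairs of chloroplast codes. These 6 pairs were taken for near-equal CPM, so their place at the line follows from that choice. Among circles of at least 200 counts most lie near the line, and 1 of the 55 nuclear pairs is not drawn because a log axis cannot show its 0.

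Between genotypes, the clearest difference was in shoots of 41-OX, where most chloroplast codes fell relative to WT. The edgeR test called 92 of 123 lower and none higher, where 15.8% of all loci tested were called lower, 15.1% higher and 30.9% in either direction. Their median log2 fold change was -0.79, against 0.00 over all loci tested, and 121 of 123 had a negative value. Without the filter 94 chloroplast codes were called lower. Leaving out each shoot library in turn gave 74 to 90 organelle codes called, beside 94 with all, and one fit of both organs together gave 56, 55 of them chloroplast.

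ATCG00350 fell in 41-OX shoots under every alternative run. It had 50.8, 43.8 and 40.4 CPM in WT shoots, 19.6, 29.8, 19.1 and 27.3 CPM in pxy shoots and 17.5, 10.6, 17.5 and 19.4 CPM in 41-OX shoots. Neither pxy nor 41-OX overlapped WT, and the highest 41-OX shoot lay just above the lowest pxy shoot. The log2 fold change was -1.55 ± 0.18 (SE, edgeR adjusted p = 8.4e-06) in 41-OX and -0.89 ± 0.17 (SE, edgeR adjusted p = 0.014) in pxy, both against the same WT libraries. The pxy call was lost under the replicate block, in the fit of both organs and without WT shoot replicate 1 (edgeR adjusted p up to 0.47). ATCG00710 fell by 1.56 ± 0.24 in 41-OX (edgeR adjusted p = 2.6e-05), from 5.6, 5.61 and 5.34 CPM in WT shoots to 2.1, 1.22, 1.85 and 2.68 CPM.

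The codes with the most counts named here all had negative values, but not all of them passed the test. ATCG01130 fell in 41-OX shoots by 0.60 ± 0.12 (SE, edgeR adjusted p = 0.00063), with 796, 677, 805 and 719 CPM against 975 to 1186 CPM in WT. ATCG00220 fell by 0.59 and ATCG00800 by 0.45, while ATCG00780 and ATCG00790 fell by 0.32 and 0.28. In the fit of both organs together the call of ATCG00220 was lost (edgeR adjusted p = 0.46). The call of ATCG00780 was lost under 5 alternatives, among them without WT shoot replicate 4 or 41-OX shoot replicate 2 or 4. That of ATCG00790 was lost under 7, among them the same libraries and WT shoot replicate 1. ATCG00950 and ATCG01180, one of the near-equal pairs, both fell by 0.93, and both calls were lost under 6 alternatives, among them without WT shoot replicate 1 or 4 or 41-OX shoot replicate 1 or 2. ATCG01020 did not pass the test, at -0.53 ± 0.21 (SE, edgeR adjusted p = 0.074), with 942 CPM in 41-OX replicate 1 inside the range of WT. ATCG00480 and ATCG00470 did not pass either, at -0.55 and -0.44 (edgeR adjusted p = 0.073 and 0.31). The largest falls by the fitted value, ATCG01140 with -1.75 and ATCG01160 with -1.71, were at codes of few counts, with SE of 0.50 and 0.57.

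Of the 6 chloroplast codes that the reference describes, 5 fell in 41-OX shoots. ATCG00750 (ribosomal protein S11) fell by 0.77, ATCG00660 (L20) by 0.79, ATCG01310 (L2) by 0.51, ATCG00430 (annotated as photosystem II protein G) by 0.71 and ATCG00530 (CemA-like) by 0.49. ATCG00670, the Clp protease subunit, had a log2 fold change of -0.13 ± 0.09 (SE, edgeR adjusted p = 0.28). Codes described as ribosomal proteins were among those that fell. The names of all 6 codes came through nuclear loci without an alignment to the chloroplast genome, so they were not checked by sequence. None of the 6 passed the test in pxy shoots, where ATCG00660 came nearest with -0.91 ± 0.24 (SE, edgeR adjusted p = 0.056).

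Markers of the organs moved with this difference. In 41-OX shoots 9 of 16 shoot markers fell, with a median log2 fold change of -0.28, and all 9 root markers tested rose, with a median of 2.76. Of all loci tested there, 15.8% were called lower and 15.1% higher. The summed shoot markers were 19161 to 21316 CPM in 41-OX shoots and 21714.5 to 22722 CPM in WT shoots, which did not overlap. No shoot marker was at 0 in any library used, and of the root markers NRT2.1 was at 0 in 4 shoots and COBL9 in 1. The part of the markers' change in the fall of chloroplast codes was not tested.

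In pxy shoots 17 of 123 chloroplast codes fell relative to WT and none rose, where 1.26% of all loci tested fell, 0.436% rose and 1.7% were called in either direction. The median was -0.45, and 120 of 123 values were negative. Without the filter 24 fell. ATCG00520 had 10.1, 8.05 and 7.50 CPM in WT shoots and 3.15, 5.34, 2.65 and 4.05 CPM in pxy shoots, with no overlap. Its log2 fold change was -1.14 ± 0.23 (SE, edgeR adjusted p = 0.0085).

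This count rested on single libraries. Dropping WT shoot replicate 1 left 4 codes, and dropping WT shoot replicate 3 left 5. Of the pxy shoots, dropping replicate 3 left 5, dropping replicate 4 left 7, and dropping replicate 2 raised the count to 32. One fit of both organs together called 1 code. The organ markers did not pass the test in pxy shoots, with 0 of 16 shoot and 0 of 9 root markers called, beside 1.7% of all loci.

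**Figure D4:**
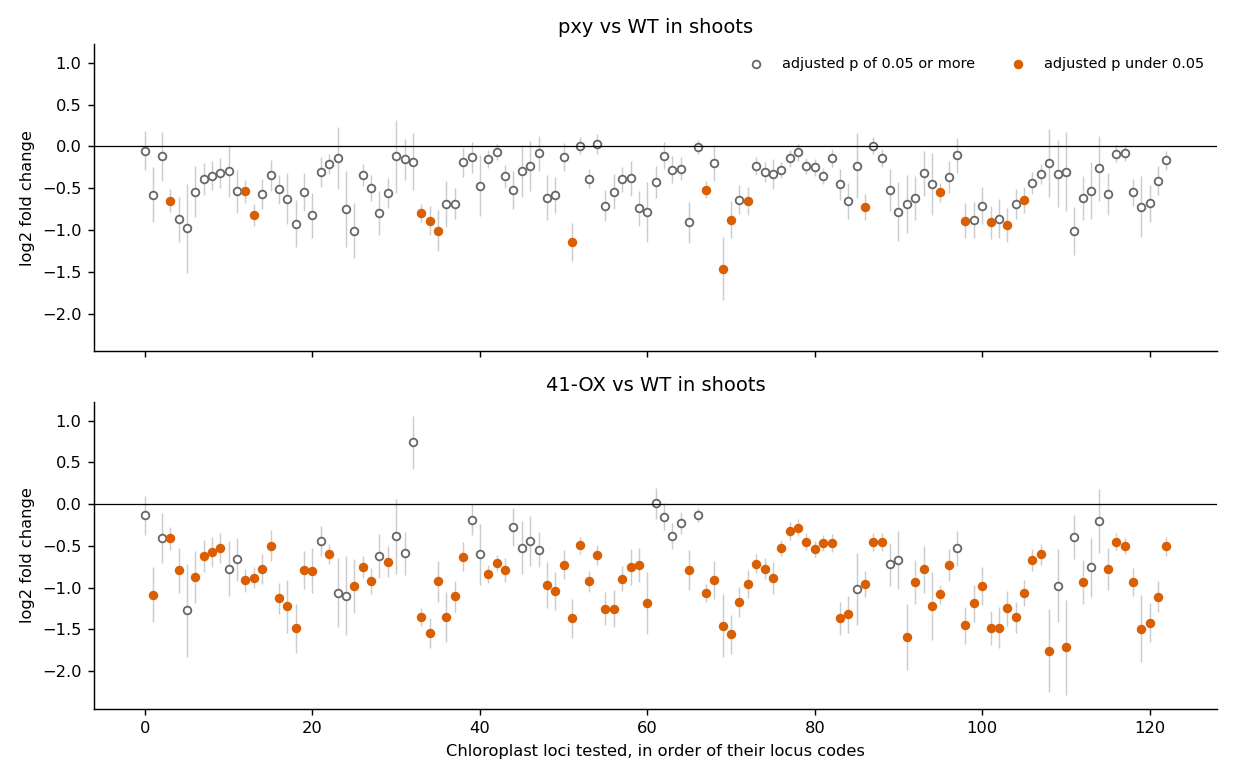
log2 fold changes of chloroplast loci in pxy shoots (top) and 41-OX shoots (bottom) against the same WT shoots, in code order, with SE bars. Filled points had an edgeR adjusted p under 0.05. In 41-OX 92 of 123 points are filled, all below 0, and in pxy 17.

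Set directly against pxy shoots, 41-OX shoots had 40 chloroplast codes lower and 1 higher, where 14.7% of all loci tested were lower, 14.5% higher and 29.2% either, and a median of -0.35. Without a filter 36 were lower and 0 higher. The code that rose was ATCG00330, by 0.92 ± 0.30 (SE, edgeR adjusted p = 0.044). It had 40.05, 27.3, 25.5 and 16.1 CPM in 41-OX shoots and 19.9, 10.6, 14.4 and 9.38 CPM in pxy shoots, so that the groups overlapped, and 8 alternatives ended the call. ATCG00840 fell by 0.92 ± 0.20 (SE, edgeR adjusted p = 0.0012). Without pxy shoot replicate 2 the organelle codes called numbered 25, without 41-OX shoot replicate 1 they numbered 27, and without 41-OX shoot replicate 2 they numbered 20, beside 42 with all libraries.

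Few mitochondrial codes could be tested in shoots. Of 15, 2 fell in 41-OX relative to WT, near the 15.8% of all loci that fell there (3 fell without a filter). They were ATMG00370 by 0.69 ± 0.21 (SE, edgeR adjusted p = 0.017) and ATMG01360 by 0.97 ± 0.26 (SE, edgeR adjusted p = 0.0068). ATMG00370 is the code with the Ycf1 annotation described above, and its call was lost without WT shoot replicate 3 or 4 (edgeR adjusted p up to 0.077). None of 15 passed in pxy shoots by edgeR, where 5 had an unadjusted p under 0.05 beside 13.4% of all loci, and none passed with the Wald test of DESeq2. ATMG00030 was higher in 41-OX than in pxy shoots by 0.73 ± 0.22 (SE, edgeR adjusted p = 0.013), with 4.60 to 6.54 CPM against 2.53 to 3.70 CPM.

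In roots few organelle codes passed the test between genotypes. None of 129 tested was called in pxy against WT, where 0.0394% of all loci were called. An unadjusted p under 0.05 was found at 6 chloroplast codes and 1 mitochondrial code, beside 10.1% of all loci, and DESeq2 also called none. In 41-OX against WT 3 were called, where 6.56% of all loci were, and 2 in 41-OX against pxy, where 9.77% were. Without a filter these counts were 2 and 0, and with both left-out libraries no code was called in either comparison.

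ATMG00980, for the ribosomal protein of the S12 family, rose in 41-OX roots. It had 15, 27, 29 and 21 counts in WT roots and 74, 42, 45 and 53 counts in 41-OX roots, or 1.40 to 2.84 CPM and 4.25 to 6.05 CPM. The groups did not overlap, and the log2 fold change was 1.29 ± 0.26 (SE, edgeR adjusted p = 0.0074). Its nuclear copy AT2G07675, identical over 378 bases, rose by 1.70 ± 0.22 (SE, edgeR adjusted p = 0.00039). The 3 pxy roots had 3.57, 5.25 and 2.79 CPM at ATMG00980, overlapping both groups. With both left-out libraries the call was lost (edgeR adjusted p = 0.073). Counts at the pair cannot be assigned to either genome.

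ATMG00730, for cytochrome oxidase subunit 3, went the other way. It had 8.04, 4.11, 8.60 and 3.56 CPM in WT roots, 11.8, 3.22 and 2.15 CPM in pxy roots and 1.31, 1.19, 2.27 and 0.673 CPM in 41-OX roots. WT and 41-OX did not overlap, while pxy overlapped both. The log2 fold change was -2.12 ± 0.55 against WT (SE, edgeR adjusted p = 0.037) and -2.07 ± 0.58 against pxy (SE, edgeR adjusted p = 0.043). Its copy AT2G07687 had -1.78 ± 0.57 against WT and did not pass (edgeR adjusted p = 0.092). The call against WT was lost under 8 alternatives and that against pxy under 7, among them the fit without a filter and those without 41-OX root replicate 1, 2 or 4.

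Other respiratory codes did not pass in 41-OX roots, and their values went both ways. Of 44 mitochondrial codes tested, 35 had a negative log2 fold change and 26 an unadjusted p under 0.05, with a median of -1.22 beside 0.01 over all loci. Of all loci 19.2% had an unadjusted p under 0.05. In WT roots 35 mitochondrial codes reached the filter's minimum and in 41-OX roots 25, each group counted by itself. This favours codes high in WT, and without the filter the median was -0.59. Apocytochrome b (ATMG00220) had -1.82 with an adjusted p of 0.089 by edgeR, ATP synthase subunit 8 (ATMG00480) had -1.77 with 0.083, and ATP synthase subunit 1 (ATMG01190) had -1.33 with 0.15. ATP synthase subunit 9 (ATMG01080) had 0.27 with 0.57, and NADH dehydrogenase 3 (ATMG00990) had 0.21 with 0.72. DESeq2's Wald test called 8 mitochondrial codes lower and 1 higher in this comparison.

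These codes varied within WT and pxy. ATMG01190 had 14.1, 10.1, 16.2 and 7.02 CPM in WT roots, 20.9, 3.82 and 5.06 CPM in pxy roots and 5.73, 4.65, 5.01 and 3.25 CPM in 41-OX roots. WT replicates 1 and 3 and pxy replicate 1 were high, and pxy replicates 3 and 4 lay within the range of 41-OX. In shoots the same code had 1.22 to 2.74 CPM in all genotypes.

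**Figure D5:**
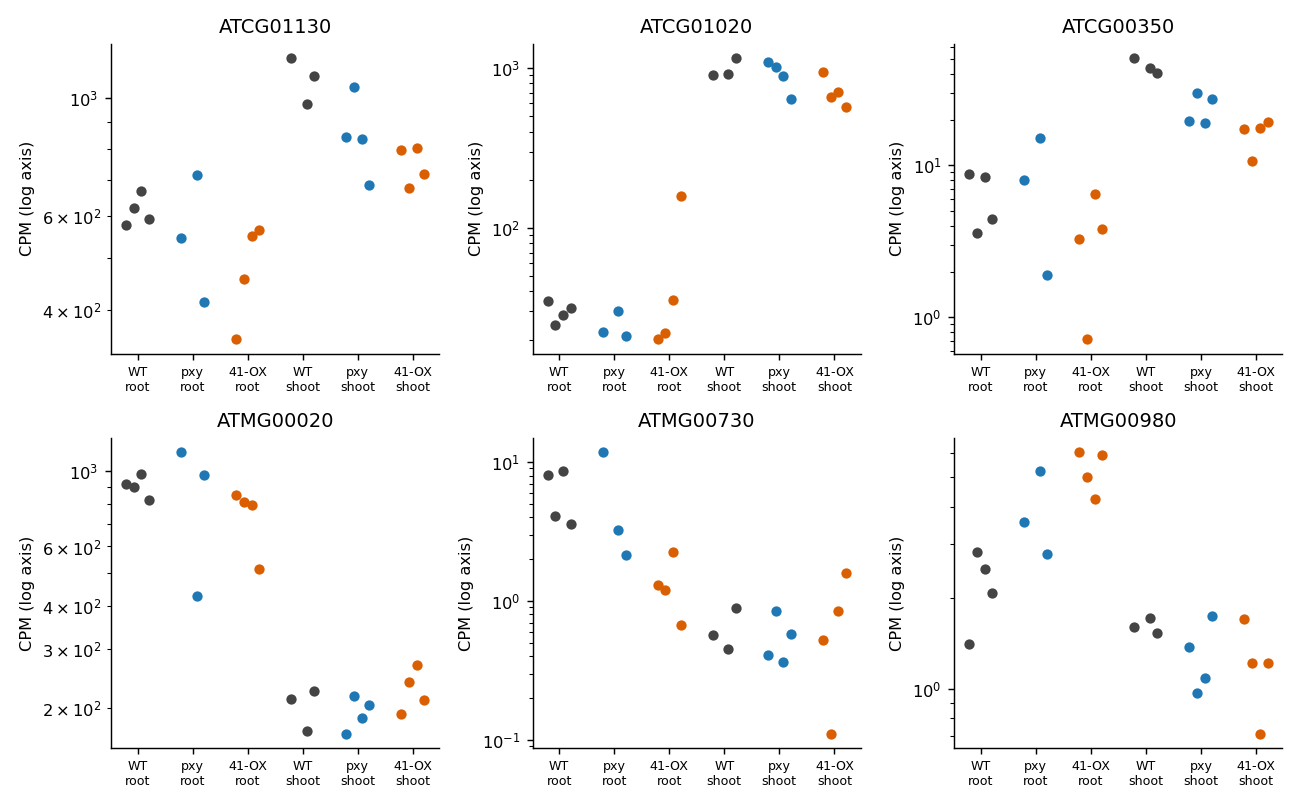
CPM of 6 organelle loci in each library used, by genotype and organ, on log axes. ATCG01130 differs less between organs than ATCG01020, whose high root value of 159 CPM is 41-OX replicate 4. ATCG00350 is lower in pxy and 41-OX shoots than in WT shoots, and in 41-OX roots ATMG00730 is lower and ATMG00980 higher than in WT roots.

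Among chloroplast codes, ATCG00010 rose in 41-OX roots by 1.01 ± 0.27 (SE, edgeR adjusted p = 0.035), from 1.46 to 2.62 CPM in WT to 2.78 to 4.60 CPM. ATCG00500 was lower in 41-OX than in pxy roots by a log2 fold change of -1.78 ± 0.49 (SE, edgeR adjusted p = 0.040), with 0.596 to 3.69 CPM against 3.04 to 13.1 CPM, which overlap. Each of these calls ended in 7 of the alternatives. For ATCG00010 these included leaving out 41-OX root replicate 4, WT root replicate 2, 3 or 4, or 41-OX root replicate 2. The number of organelle codes called against WT was 1 without WT root replicate 2 or 3 or 41-OX root replicate 2. Against pxy it was 1 without pxy root replicate 1, 20 without pxy root replicate 4, and 0 without 41-OX root replicate 1 or 2.

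The difference between roots and shoots was tested for a dependence on genotype in one fit of 22 libraries. For 41-OX against WT 17 chloroplast codes and 1 mitochondrial code, ATMG00980, had a root-minus-shoot change more positive than in WT, where 6.19% of all loci tested did. No organelle code was more negative by edgeR, beside 9.78% of all loci (16.0% in either direction). None was called for pxy, where 0.00935% of all loci were and 28 chloroplast and 3 mitochondrial codes had an unadjusted p under 0.05, beside 6.06% of all loci. ATCG01300 had 2.21 to 3.70 CPM in WT roots, 2.65 to 5.39 CPM in 41-OX roots, 14.2 to 16.0 CPM in WT shoots and 4.99 to 9.76 CPM in 41-OX shoots. The roots overlapped, the shoots did not, and the interaction was 1.68 ± 0.36 (SE, edgeR adjusted p = 0.0018). With both left-out libraries 2 codes were called and without a filter 17, and leaving out single libraries gave 9 to 24. The count was 9 without 41-OX shoot replicate 2, 10 without WT root replicate 4 or WT shoot replicate 1, and 11 without WT root replicate 2, WT shoot replicate 4 or 41-OX root replicate 4.

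Nuclear genes that act on organelle genomes were described by 5 lists, chosen with results of these data known. Of 9 genes for the phage-type polymerases and the sigma factors that direct the plastid-encoded polymerase, 2 fell in 41-OX shoots relative to WT and none rose. This and the counts of the lists that follow stand beside 15.8% of all loci lower and 15.1% higher. SIG5, a stress- and light-responsive sigma factor, had 41.7, 43.1 and 35.8 CPM in WT shoots and 11.9, 18.2, 20.8 and 15.6 CPM in 41-OX shoots. There was no overlap, and it fell by 1.34 ± 0.16 (SE, edgeR adjusted p = 8.4e-06). SIG1 fell by 0.56 ± 0.08, from 187 to 217 CPM to 139 to 148.5 CPM. The list's median was -0.15, beside 0.00 over all loci.

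Of 12 proteins associated with the plastid polymerase 1 rose, PAP4, an iron superoxide dismutase, by 0.37 ± 0.14 (SE, edgeR adjusted p = 0.045). Of 18 factors of organelle RNA processing, decay and editing, the editing factor MORF8 rose by 0.38 and the chloroplast polynucleotide phosphorylase, an exonuclease, fell by 0.21. None of 7 genes of organelle DNA maintenance was called in 41-OX shoots. No gene of these lists or of the list on mitochondrial dysfunction was called in pxy shoots or roots against WT by edgeR. Of all loci, 1.7% were called there in shoots and 0.0394% in roots.

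Of the list of genes that respond to mitochondrial dysfunction, 7 of 9 were tested in shoots. In 41-OX UPOX, a mitochondrial protein induced by oxidative stress, rose by 2.39 ± 0.21 (SE, edgeR adjusted p = 2.4e-08), with 2.74, 3.89 and 6.23 CPM in WT shoots and 25.7, 24.4, 17.1 and 25.4 CPM in 41-OX shoots. The transcription factor ANAC013 rose by 0.53, and the alternative NADH dehydrogenase NDA1 fell by 0.57. In 41-OX roots none of 6 tested was called against WT, where 6.56% of all loci were. Among the other lists the chloroplast RNA-binding protein CP29A rose in 41-OX roots by 0.55 ± 0.13 (SE, edgeR adjusted p = 0.017).

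Between organs most genes of the polymerase and sigma factor list and of the polymerase-associated list fell in roots. In WT roots 7 of 9 polymerase and sigma factor genes and 12 of 12 polymerase-associated genes fell relative to shoots, with medians of -2.78 and -1.92. RPOTmp, a phage-type polymerase that serves both organelles, rose by 0.41 (edgeR adjusted p = 0.017). The mitochondrial polynucleotide phosphorylase rose by 2.78 while the chloroplast one fell by 1.98. Of all loci tested, 40.7% fell in the same comparison.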

How the data were processed

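The deposited values were whole-number counts of reads per locus, made by the authors. CASAVA, TopHat2, HTSeq and the TAIR10 build are named in the submitters' processing notes, without versions used here. The design text mentions 2 technical replicates per sample, which the count table does not hold apart, and strand use is not stated, so overlapping or antisense loci cannot be told apart. The line of reads outside features (1.82% to 3.41% of the total) and other summary lines were left out, and reads with several alignments are listed at 0.

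CPM is a count divided by the library total at loci and scaled to a common total. Libraries were grouped by label. The quasi-likelihood F-test (robust) of edgeR 4.0.16, run in R 4.3.3 after TMM scaling and the group-wise filterByExpr, gave log2 fold changes, with roots and shoots fitted apart and organ contrasts and interactions in 1 fit of 22 libraries. A locus was called at 0.05 after Benjamini-Hochberg adjustment across every locus tested. Shares were compared by exact two-sided permutation tests (SciPy 1.17.1), with 18 adjusted together. Sequences were aligned with BLAST+ 2.17.0. The code was tested on simulated data. Alternatives were other scaling, no filter, DESeq2 1.42.0, a replicate block, both organs together, the left-out libraries, and leaving out each library. Nothing says that the replicates came from separate cultures beyond the word biological, so p-values measure the spread between these libraries.

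Named loci were those with the most counts, the largest called changes per comparison, and those the reference describes, plus loci said to be chosen after their values were seen. The members, the left-out libraries and all lists were chosen with earlier results of these data known.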

Additional observations from a re-analysis of the deposited data

Results flagged for a closer look

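Of the 18 organelle loci whose root-minus-shoot difference differed between 41-OX and WT by the interaction test of edgeR, 6 named loci differed on the log2 scale by 3.31 at ATCG00100, 2.04 at ATCG00550, 1.79 at ATMG00980, 1.68 at ATCG01300, 1.56 at ATCG00840 and 1.23 at ATCG00160. The call of ATCG00550 was lost under 14 alternatives (adjusted p up to 0.57) and that of ATCG00160 under 9 (up to 0.39), in both cases with the left-out libraries, with the replicate block and without 41-OX root replicate 4. Those of ATCG00100, ATCG00840 and ATCG01300 were lost with the left-out libraries, and that of ATMG00980 under none run. In 6 of 76 groups of 4 libraries a single library stood far from the other 3, where chance marks about 1 in 20 independent groups. The 76 reuse the same libraries at many loci and for the shares, so they are not independent and cannot be set against that rate. In 41-OX roots replicate 4 was the distant library at 4 loci, with 95.6 CPM at ATCG00220, 229 CPM at ATCG00480, 159 CPM at ATCG01020 and 515 CPM at ATMG00020. This library also had 4325 CPM of shoot markers, and the part of these in the values was not tested. WT root replicate 2 stood apart at ATMG00690 with 1.58 CPM, and pxy shoot replicate 2 at ATMG01080 with 6.68 CPM.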

How the results depend on the processing

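Fitting both organs together gave 1 organelle locus called in pxy against WT shoots (17 in the main fit), 56 in 41-OX against WT shoots (94), 10 in 41-OX against pxy shoots (42), 15 in 41-OX against WT roots (3) and 18 in 41-OX against pxy roots (2). With both left-out libraries the last pair of counts was 0 and 0, the interaction of 41-OX had 2 (18), and the chloroplast share differed by 0.138 percentage points for pxy minus WT roots and by -0.149 for 41-OX minus pxy roots, both reversed. DESeq2 called 11 in 41-OX roots against WT and 11 against pxy, and no filter on low counts left 0 against pxy. Whether replicate numbers pair the libraries could not be decided from the counts. In no comparison did every same-numbered pair correlate above 0.1. These were correlations of deviations from means of few libraries, and failing this limit does not exclude pairing. With the replicate block 6 loci were called in 41-OX against WT roots, and the paired mitochondrial share of 41-OX minus WT shoots was -0.000141. That share difference was -0.00209 without the locus with most counts and -0.000561 with nuclear copies added, an alternative chosen after seeing the data; the chloroplast share of 41-OX minus WT roots was 0.00204 without its top locus. Leaving out each library gave 4 to 32, 74 to 90 and 20 to 54 called loci in the shoot comparisons in the order above, 1 to 3 and 0 to 20 in 41-OX roots against WT and pxy, and 9 to 24 for the interaction. Share differences ranged from -0.0398 to 0.00369 (chloroplast, 41-OX minus WT roots), -0.0175 to 0.0282 (chloroplast, 41-OX minus pxy roots), -0.00159 to 0.00223 (mitochondrial, 41-OX minus WT shoots), -0.0516 to 0.00987 (mitochondrial, 41-OX minus pxy roots) and -0.0377 to 0.0237 (mitochondrial, pxy minus WT roots). The cause of these shifts was not tested. Of 112 called results at named loci, 47 lost the call under at least 1 alternative and 0 reversed. Mitochondrial loci had a median of 19 counts, which limits what could be tested there.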
